A study of Mus musculus with 6 samples.

Results

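The genes described here encode lysosomal hydrolases, lysosomal membrane proteins and the TFEB family of transcription factors. They are 34 genes taken by symbol from a fixed list, of 23420 genes in the table, and all 34 entered the test, for which 10544 genes had enough reads. Expression was measured in mouse eosinophils grown from wild-type bone marrow, with 3 libraries made 3 hours after addition of IL-33, a cytokine released by damaged tissue, at 2.5 ng/mL, and 3 libraries from cells given phosphate-buffered saline (PBS). The cells of all 6 libraries had been grown first with stem cell factor and FLT3 ligand, each at 100 ng/mL, and then in IL-5 at 20 ng/mL from day 4. They were used on day 14 after removal of dead cells, so the PBS group is also a group of IL-5-treated cells. The labels give no strain or purity, and whether replicates stem from different mice or cultures is not stated. The p-values therefore describe the spread between the libraries, and this spread may be technical.

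Lysosomes are acidic compartments in which proteins, glycans and lipids are broken down, and their membrane proteins protect the membrane, carry cargo and release ions. Many of their genes carry short E-box motifs, to which the related factors TFEB, TFE3 and MITF bind, and these factors enter the nucleus when the kinase mTORC1 at the lysosome is inactive. In eosinophils the large secretory granules share the tetraspanin CD63 and several hydrolases with lysosomes.

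Values are gene counts that the authors divided by 1 factor per library, called normalized counts below. The log2 of the normalized count plus 1 was compared between groups with limma, as IL-33 minus PBS, and a gene was called at a Benjamini-Hochberg adjusted p under 0.05 over all genes tested. Such fold changes understate the change of low genes. Rn45s, the ribosomal RNA precursor gene, held between 13.7% and 24.8% of the reads in PBS. Its share was 24.3% in IL-33 replicate 1, 59.6% in replicate 2 and 54.8% in replicate 3. This left 4229504 to 7129435 reads for all other genes. Summed over the 6 libraries, a member had between 220 reads (Mitf) and 169190 reads (Ctsd). Relative counting noise is largest for the lowest members, but the SE of the log2 fold change did not follow the reads alone. It was 0.37 for Mitf, 0.24 for Cd68 with 38 to 109 reads per library, and 0.36 for Lipa with 742 to 4034. The labelled cell type was checked against its markers: all 11 eosinophil markers in the table were detected and tested, led by Prg2 and Alox15. Their summed level was 52876 to 63914 in PBS and 24617 to 35154 after IL-33, with 9 called lower and 1 higher. Prg2 alone held 28512 to 41054 of this sum in PBS and 11033 to 20834 after IL-33. For these and the marker counts that follow, 17.4% of all genes tested were called higher and 14.4% lower. Neutrophil markers summed to between 2884 and 3562 in PBS and between 2293 and 3024 after IL-33, with 3 of 9 tested called lower. Mast cell and basophil markers summed to between 187 and 476 and between 131 and 356, with 2 of 6 called lower. No marker of either list was called higher. Erythroid and megakaryocyte markers summed to 2194 to 2955 in PBS and 1984 to 2959 after IL-33, with 1 of 3 tested called higher (Pf4). Lymphoid markers summed to 49.5 to 62.9 and 32.2 to 46.8, with 1 tested and 0 called. Of 7 macrophage and monocyte markers tested, 3 rose (Emr1, Csf1r and Cd14) and 1 fell, and their summed level went from between 8974 and 11524 to between 25146 and 32012. Emr1, which is Adgre1 and is also present on eosinophils, made up most of this sum. Csf1r had 3980 to 4934 after IL-33 and 1461 to 1732 in PBS (log2 fold change 1.40). Cd14 had 802 to 1012 after IL-33 and 48.9 to 106 in PBS (3.68), and Ccr2 fell (−1.91). C1qa, C1qb, C1qc, Cx3cr1 and Mertk lay under the filter on low values, and Marco was at 0 in every library. Lysosomal genes are abundant in macrophages, and the part of such cells in the results below was not tested. In bulk RNA, more cells of a type and more RNA per cell cannot be told apart.

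IL-33 moved lysosomal genes in both directions. Of the 34 members, 8 rose, 4 fell and 22 were not called. The rises were in Tfe3, Ctsz, Ctsc, Cd63, Psap, Neu1, Lamp2 and Ctsd, and the falls in Asah1, Glb1, Ctsa and Grn. The called shares of 23.5% higher and 11.8% lower stand beside 17.4% and 14.4% of all genes tested (31.9% in either direction), so the share of lysosomal genes that changed was close to that of the background. The values of the groups were apart, with no overlap, in 22 members, 12 of them higher and 10 lower, or 64.7%, against 50.2% of all genes tested (25.5% higher and 24.7% lower). The median log2 fold change was 0.12 over the members and −0.03 over all genes tested, and the median size of the change, regardless of sign, was 0.57 in both. A called change of at least 2-fold was seen in 4 members, Tfe3, Ctsz, Ctsc and Asah1.

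**Figure D1:**
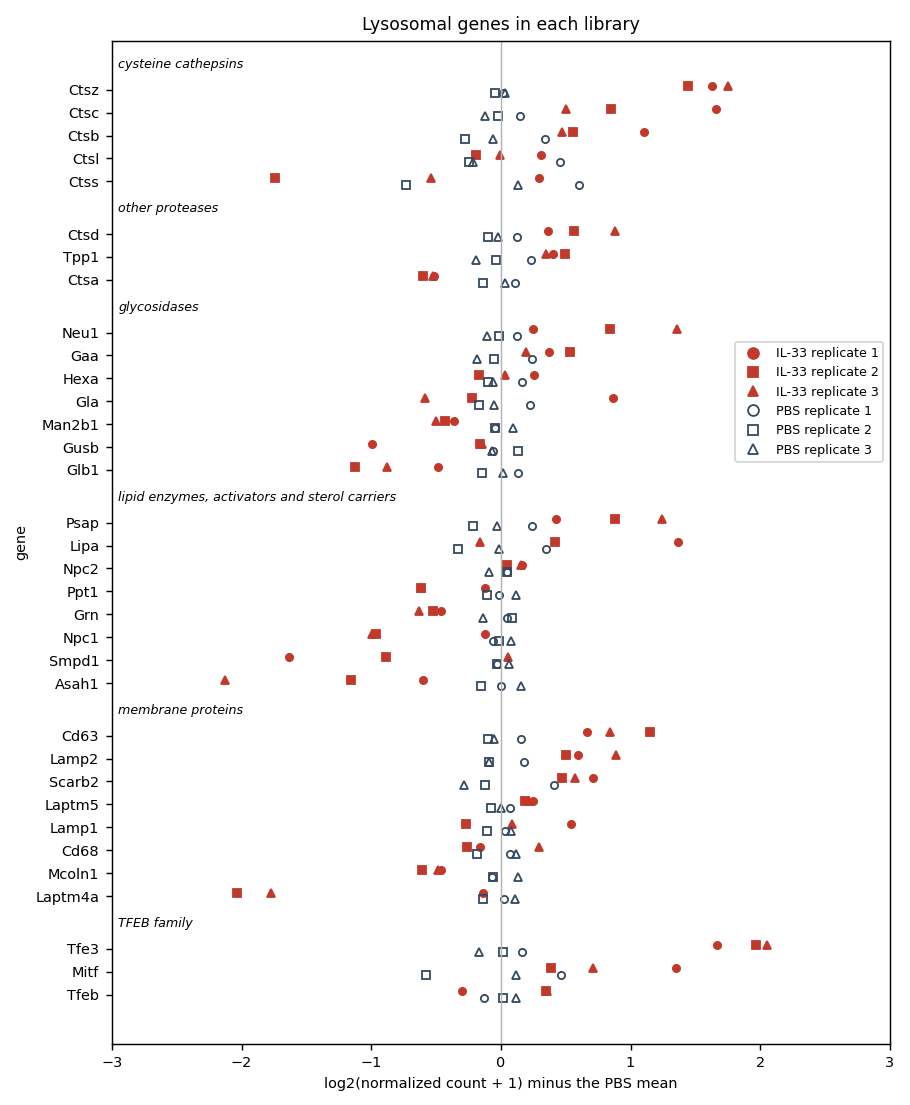
Each of the 34 lysosomal genes in each library, as log2(normalized count + 1) minus the mean of the 3 PBS libraries (horizontal axis), with genes grouped by role (vertical axis). Filled symbols are IL-33 libraries and open symbols PBS libraries, with 1 shape per replicate number. The IL-33 symbols of Tfe3 and Ctsz lie far to the right of all PBS symbols, while those of Lipa, Gla, Smpd1 and Laptm4a are widely spread.

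**Figure D2:**
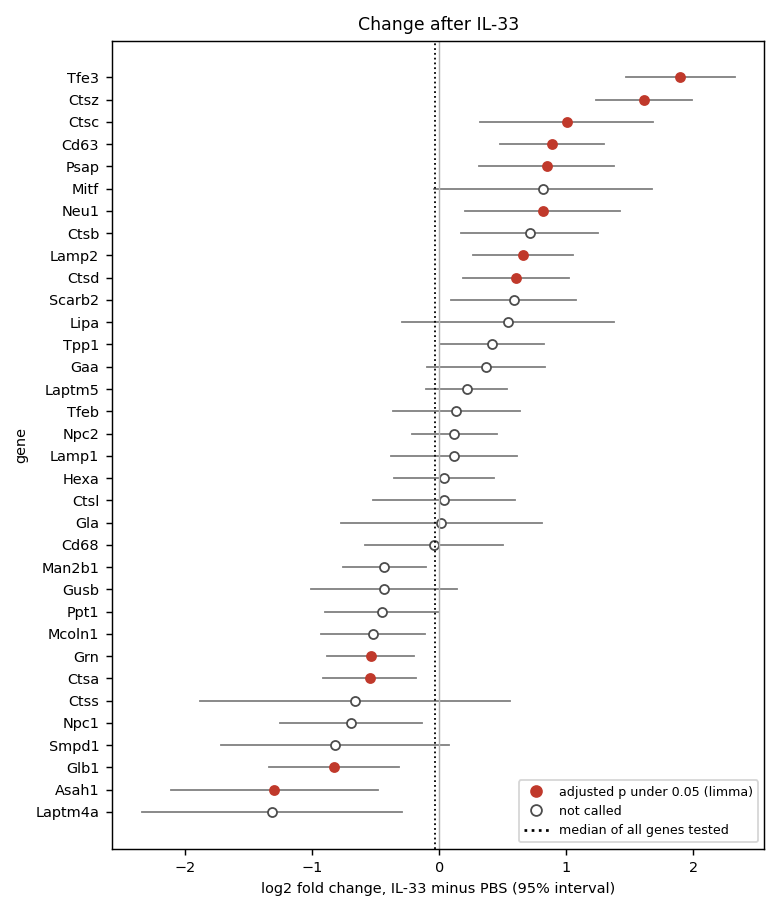
Log2 fold change of each lysosomal gene, IL-33 minus PBS (horizontal axis), with its 95% interval from limma. Filled points have an adjusted p under 0.05 (8 higher and 4 lower), open points do not, and the dotted line is the median of all 10544 genes tested, −0.03.

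Among the TFEB family, Tfe3 rose and Tfeb and Mitf were not called. Tfe3, which encodes a transcription factor of lysosomal and autophagy genes (GRCm38 chromosome X, 7762560 to 7775202), had normalized counts of 541, 667 and 707 after IL-33 (here and below in the order of replicates 1, 2 and 3) and of 189, 171 and 150.3 with PBS. All IL-33 libraries lay more than 2-fold above the highest PBS library. Its mean went from 170.2 ± 19.6 to 638 ± 86.5 (SD, n = 3 each), which is 1.90 on the log2 scale (SE 0.19, limma adjusted p = 4.96e-04). Of the 34 members, Tfe3 was the one called in all 19 alternatives, at log2 fold changes between 0.86 and 2.01.

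Tfeb, its relative (chromosome 17, 47737030 to 47792419), had 421, 663 and 666 after IL-33 and 474, 525 and 563 in PBS. Replicate 1 was below every PBS library and replicates 2 and 3 were above them. The log2 fold change was 0.14, with a 95% interval of −0.36 to 0.63 (adjusted p = 0.643, limma). Mitf, the melanocyte and mast cell member (chromosome 6, 97807052 to 98021349), was the lowest of the 34, at 63.8, 32.3 and 40.7 after IL-33 and 34.2, 16.0 and 26.6 in PBS. The groups overlapped by 1 library on each side, and the log2 fold change of 0.82 had an interval of −0.04 to 1.67. Per kb of exon, Tfeb had the highest level of the family in both groups, 91.8 in PBS and 103 after IL-33. Tfe3 went from 18.4 to 68.9 per kb and Mitf from 4.13 to 7.36.

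The E-box motif of this family was looked for in RefSeq promoter windows of GRCm38.p6, from 250 bases before to 50 bases after the transcription start. Windows were given for 31 of the 34 genes (38 windows), while Asah1, Ctsb and Npc1 had none and were not searched. The palindrome TCACGTGA was found in windows of 4 members, Ctsa, Ctsd, Gla and Mcoln1, or 10.5% of the 38 windows, against 0.974% of all 32851 windows. The shorter CACGTG, which it contains, was in windows of 8 members, the further ones being Ctsl, Gaa, Glb1 and Lamp1, or 21.1% of windows against 7.15% of all. The CLEAR palindrome, which adds 1 fixed base on each side, was in 0 of the 38 windows and in 0.326% of all windows. The AP-1 site TGACTCA, searched on both strands for contrast, was in windows of 5 members, Cd68, Glb1, Laptm4a, Neu1 and Psap, or 13.2% against 5.20% of all. All other motifs read the same on both strands. All matches of the 8-base palindrome before the start are shown, with the motif in capitals and the strand of the gene:
Ctsd, chr7:142387908-142387937, minus strand, motif from base −99: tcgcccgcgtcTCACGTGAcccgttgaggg
Ctsa, chr2:164833749-164833772, plus strand, motif from base −13: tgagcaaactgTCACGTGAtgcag
Mcoln1, chr8:3500462-3500491, plus strand, motif from base −46: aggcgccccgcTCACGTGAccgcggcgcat
Gla, chrX:134601215-134601244, minus strand, motif from base −228: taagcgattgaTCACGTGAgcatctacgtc
Gla, chrX:134601182-134601211, minus strand, motif from base −195: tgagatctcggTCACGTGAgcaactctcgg
Of these 4 genes, Ctsd rose (log2 fold change 0.60), Ctsa fell (−0.55), and Mcoln1 (−0.52) and Gla (0.02) were not called. The 2 largest rises, Tfe3 and Ctsz, had no CACGTG in their windows. A match is a description of these letters only, and no binding was measured. Whether these factors act on the genes with or without a match was not tested.

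The cysteine cathepsins are papain-like proteases, and 2 of the 5 rose. Here and below, the counts by role cover few genes and stand beside 17.4% higher and 14.4% lower of all genes tested. Ctsz, a carboxypeptidase also called cathepsin X (chromosome 2, 174427493 to 174439039), had 729, 641 and 795 after IL-33 and 238, 227 and 239.7 in PBS. The groups were far apart and each was tight. Its mean went from 235 ± 6.82 to 722 ± 77.0 (n = 3 each), a 3.05-fold change (log2 1.61, SE 0.16, adjusted p = 5.84e-04, limma). Ctsz was called in 18 of 19 alternatives and lost its call, at 0.57, only after scaling to equal totals.

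Ctsc, dipeptidyl peptidase I, which activates granule serine proteases (chromosome 7, 88278085 to 88310888), had 342, 194 and 153 after IL-33 and 119, 106 and 98.5 in PBS. Every IL-33 library was above every PBS library, with replicate 1 the highest (log2 fold change 1.00, SE 0.30, adjusted p = 0.0354, limma). Without IL-33 replicate 2 or any 1 of the PBS libraries it was not called, with 0.68 to 1.25 on the log2 scale over all 6 fits that left out a library. Its call was also lost after scaling to equal totals without Rn45s, and it was just below 0 (−0.029) after scaling to equal totals.

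Ctsb, an abundant endopeptidase (chromosome 14, 63122462 to 63145923), did not overlap either, at 1107, 754 and 714 after IL-33 and 651, 423 and 492 in PBS, but was not called (log2 fold change 0.71, interval 0.17 to 1.25, adjusted p = 0.0505, limma). Ctsl, another endopeptidase, had overlapping values of 252 to 357 and 243 to 396 (0.04, interval −0.52 to 0.60). Of its exonic bases, 26.8% overlap exons of other genes. Ctss, known for its part in processing the invariant chain of MHC class II, had 91.7, 21.5 and 50.8 after IL-33 and 113, 44.4 and 81.8 in PBS (−0.66, interval −1.88 to 0.56). These 3 cathepsins were highest in replicate 1 of both groups.

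The other proteases went separate ways. Ctsd, the aspartic protease cathepsin D (chromosome 7, 142375911 to 142388038), had 28776, 33055 and 41128 after IL-33 and 24301, 20864 and 21984 in PBS, with no overlap. The change was 1.52-fold (log2 0.60, SE 0.18, adjusted p = 0.037, limma). It was by far the most abundant member per kb of exon, at 9521 in PBS, rank 6 among all tested genes with a length, and 14598 after IL-33, rank 8. Of its exonic bases, 34.4% overlap the annotated gene Gm49369 on the same strand, so its reads may not all be told apart. Ctsd was not called in 12 of 19 alternatives, among them 5 of the 6 fits without 1 library (0.47 to 0.72 over all 6) and 3 scalings, and it was below 0 after quantile normalization (−0.15) and scaling to equal totals (−0.44).

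Ctsa, the serine carboxypeptidase that protects other enzymes (chromosome 2, 164832873 to 164841032), had 338, 318 and 336 after IL-33 and 520.3, 440.2 and 493 in PBS. All 3 IL-33 values were below all PBS values and close together (−0.55 on the log2 scale, SE 0.16, limma adjusted p = 0.034). Of its exonic bases, 17.4% overlap exons of Neurl2 and Pltp on the opposite strand. It lost its call without IL-33 replicate 2 or any 1 PBS library, with −0.61 to −0.49 over the 6 fits. Tpp1, tripeptidyl peptidase 1, did not overlap (347 to 384 after IL-33, 239 to 321 in PBS) but was not called (0.41, adjusted p = 0.108, limma).

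Among 7 glycosidases, Neu1 rose, Glb1 fell and 5 were not called. Neu1, the sialidase that removes sialic acid from glycans (chromosome 17, 34931253 to 34935953), had 1051, 1590.2 and 2273 after IL-33 and 965, 879.6 and 823 in PBS. Replicate 1 lay just above the highest PBS library and replicate 3 far above it (log2 fold change 0.81, SE 0.27, adjusted p = 0.0484, limma). Neu1 kept its call in 7 of 19 alternatives; over the 6 fits without 1 library, 1 called it and the values were 0.54 to 1.10, and it was below 0 (−0.23) after scaling to equal totals.

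Glb1, the beta-galactosidase (chromosome 9, 114401076 to 114474898), had 120.5, 76.9 and 91.5 after IL-33 and 185, 153 and 171 in PBS. The IL-33 values were all lower (−0.83, SE 0.22, adjusted p = 0.0264, limma), and the call was lost in 4 of the 6 fits without 1 library, at −1.001 to −0.680 over all 6. Man2b1, the alpha-mannosidase and the most abundant glycosidase per kb of exon (1367 in PBS), had 8545, 8131 and 7738 after IL-33 and 10622, 10606 and 11684 in PBS. Its groups were apart and tight, yet it just missed the threshold (−0.43, interval −0.76 to −0.10, adjusted p = 0.0503, limma).

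Gusb, the beta-glucuronidase, was lowest in IL-33 replicate 1, at 207, with 371 and 373 in replicates 2 and 3 and 393 to 453 in PBS (−0.43, adjusted p = 0.208, limma). Gla, the alpha-galactosidase, had the opposite pattern, 1155 in IL-33 replicate 1 against 544 and 422 in the other IL-33 libraries and 564 to 742 in PBS. Hexa, the alpha subunit of hexosaminidase A, overlapped at 1220 to 1636 and 1281 to 1537 (0.04, interval −0.36 to 0.43). Gaa, which breaks down glycogen, overlapped at 153 to 194 and 117 to 158 (0.37, interval −0.10 to 0.83).

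Of 8 genes listed as lipid enzymes, their activators and sterol carriers, Psap rose, Asah1 and Grn fell and 5 were not called. Grn was counted in this list although it is none of these. Psap, the precursor of the saposins that present sphingolipids to hydrolases (chromosome 10, 60277627 to 60302597), had 5646, 7757 and 9955 after IL-33 and 4990.3, 3637 and 4126 in PBS. All IL-33 libraries were higher, replicate 3 the most (1.80-fold, log2 0.85, SE 0.23, adjusted p = 0.0272, limma). Its call was lost in 5 of the 6 fits without 1 library, at 0.65 to 1.06 over all 6.

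Asah1, acid ceramidase (chromosome 8, 41340197 to 41374773), had 192, 131 and 66.1 after IL-33 and 294, 263 and 326 in PBS. It showed the deepest fall of the called members (0.407-fold, log2 −1.30, SE 0.36, adjusted p = 0.0276, limma), and the IL-33 libraries spread over a wide range, with 214, 85 and 39 reads in replicates 1, 2 and 3. It was called in 2 of the 6 fits without 1 library (−1.64 to −0.88 over all 6). Grn, which encodes progranulin, a secreted protein that is split into granulins in the lysosome (chromosome 11, 102430315 to 102437048), had 1637, 1566 and 1458 after IL-33 and 2332, 2396 and 2055 in PBS. Both groups were tight (−0.54, SE 0.15, adjusted p = 0.028, limma), but it was called in only 1 of the 6 fits without 1 library, at −0.61 to −0.49 over all 6.

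Npc1, the membrane protein that exports cholesterol, had 1939 in IL-33 replicate 1, close to the 2024 to 2223 of the PBS libraries, and 1084 and 1058 in replicates 2 and 3 (−0.69, interval −1.25 to −0.14, adjusted p = 0.059, limma). Its soluble partner Npc2 overlapped at 1340 to 1449 and 1214 to 1342 (0.12, interval −0.21 to 0.45). Lipa, the acid lipase of cholesteryl esters, had 3627, 1881 and 1258 after IL-33 and 1121 to 1788 in PBS, so that replicate 1 alone was far above PBS (0.54, interval −0.29 to 1.37). Smpd1, acid sphingomyelinase, had 29.7, 50.8 and 98.3 after IL-33 and 92.4 to 98.5 in PBS, with replicate 3 within the PBS range (−0.82, interval −1.72 to 0.08). Ppt1, which removes palmitate from proteins, had 431, 306 and 305 against 435 to 509 (−0.45, adjusted p = 0.107, limma).

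Of the 8 membrane proteins, Cd63 and Lamp2 rose, none fell and 6 were not called. Cd63, a tetraspanin of lysosomes and secretory granules (chromosome 10, 128900989 to 128912822), had 11159, 15662 and 12592 after IL-33 and 7859, 6556 and 6769 in PBS. The groups were well apart (1.85-fold, log2 0.89, SE 0.18, adjusted p = 0.00927, limma). Cd63 was called in 4 of the 6 fits without 1 library (0.75 to 1.00 over all 6). Its call was lost after quantile normalization (0.14, adjusted p = 0.472, limma) and scaling to equal totals without Rn45s (0.46, adjusted p = 0.0558), and it was below 0 (−0.16) after scaling to equal totals.

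Lamp2, a heavily glycosylated protein that lines the membrane and takes part in fusion with autophagosomes (chromosome X, 38401357 to 38456454), had 1706, 1606 and 2093 after IL-33 and 1281, 1061 and 1063 in PBS, with no overlap (1.58-fold, log2 0.66, SE 0.17, adjusted p = 0.0227, limma). Its call was kept in 3 of the 6 fits without 1 library, at 0.55 to 0.75 over all 6, and it was below 0 (−0.38) after scaling to equal totals. Lamp1, its paralog (chromosome 8, 13159161 to 13175338), overlapped, at 2034, 1158 and 1486 after IL-33 and 1433, 1296 and 1474 in PBS. Replicate 1 was above and replicate 2 below all PBS libraries (0.12, interval −0.38 to 0.62, adjusted p = 0.689, limma).

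A further 4 membrane protein genes had groups that did not overlap without being called. Groups without overlap, called or not, were seen in 50.2% of all genes tested. Laptm4a, a small transmembrane protein, had 284, 44 and 48 reads in IL-33 replicates 1, 2 and 3, and its normalized count in replicate 1 was just below the lowest PBS library (−1.32, interval −2.34 to −0.29, adjusted p = 0.0537, limma). Its change was −0.14 in replicate 1 and −1.91 in the mean of replicates 2 and 3. Laptm5, its relative in blood cells, had 4418 to 4619 after IL-33 and 3692 to 4084 in PBS (0.22, adjusted p = 0.25, limma). Mcoln1, the calcium channel TRPML1, had 125 to 138 and 181 to 209 (−0.52, adjusted p = 0.0553, limma), and Scarb2, the receptor that brings glucocerebrosidase to lysosomes, 408 to 482 and 240.4 to 389 (0.59, adjusted p = 0.0687, limma). Cd68, a macrosialin also used as a macrophage marker, was low and overlapped, at 58.4 to 86.4 and 61.8 to 76.2 (−0.04, interval −0.59 to 0.50).

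**Figure D3:**
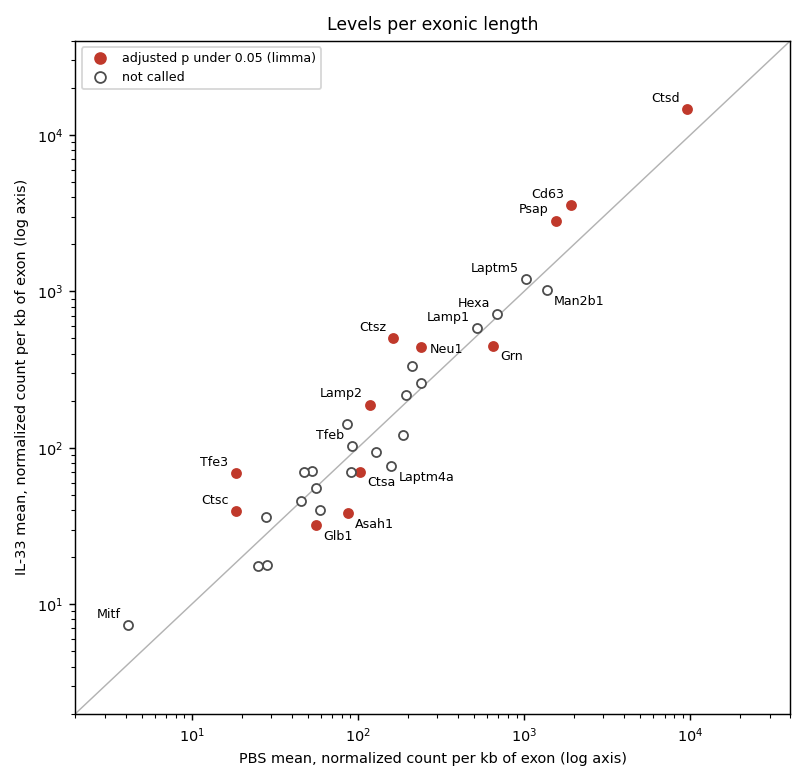
Mean normalized count per kb of exon of the 34 lysosomal genes in PBS (horizontal) and after IL-33 (vertical), both on log axes, with the line of equal values. Filled points were called by limma. Ctsd lies highest, at 9521 and 14598, and Mitf lowest, at 4.13 and 7.36.

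Levels per exonic length were spread over more than 3 orders of magnitude, and a few members took most of the reads. After Ctsd, the highest in PBS were Cd63 (1918 per kb), Psap (1549), Man2b1 (1367) and Laptm5 (1027). After IL-33 the same 5 led, with Cd63 at 3568, Psap at 2838, Laptm5 at 1193 and Man2b1 at 1014 per kb. The summed normalized count of all members was 81422, 86727 and 94748 after IL-33 and 70870, 62140 and 65695 with PBS, higher in every IL-33 library. As a share of each library's reads without Rn45s, which does not depend on the authors' scaling, the members held 1.27%, 1.29% and 1.32% after IL-33 and 1.38%, 1.24% and 1.33% in PBS, and these overlapped. Without Ctsd the share was 0.821%, 0.801% and 0.748% after IL-33 and 0.910%, 0.823% and 0.882% in PBS, lower in every IL-33 library. Ctsd made up 35.3% to 43.4% of the members' sum after IL-33 and 33.5% to 34.3% in PBS.

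Ratios of members within a library are free of any scaling, and 6 pairs of genes with related roles were compared, chosen after their values were seen and so without a test. Cathepsin A, beta-galactosidase and the sialidase are known to form 1 complex. The log2 ratio of Neu1 to Ctsa was 1.64, 2.32 and 2.76 after IL-33 and 0.89, 1.00 and 0.74 in PBS, and that of Neu1 to Glb1 was 3.13, 4.37 and 4.63 against 2.38, 2.53 and 2.27. In both, all IL-33 libraries were higher. Prosaposin and progranulin bind each other on the way to the lysosome, and the log2 ratio of Psap to Grn was 1.79, 2.31 and 2.77 after IL-33 and 1.10, 0.60 and 1.01 in PBS.

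For Tfe3 to Tfeb the log2 ratio was 0.36, 0.010 and 0.09 after IL-33 and −1.32, −1.62 and −1.90 in PBS, a shift of 1.77 that had a similar size in all 3 IL-33 libraries. The ratio of Npc2 to Npc1 did not overlap either, at −0.42, 0.31 and 0.45 against −0.60, −0.64 and −0.87, with replicate 1 near the PBS libraries. The ratio of Lamp2 to Lamp1 overlapped, since replicate 1, at −0.25, lay within the PBS range of −0.47 to −0.16, while replicates 2 and 3 stood at 0.47 and 0.49. A ratio shows that 2 genes changed unequally, not which of them changed.

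**Figure D4:**
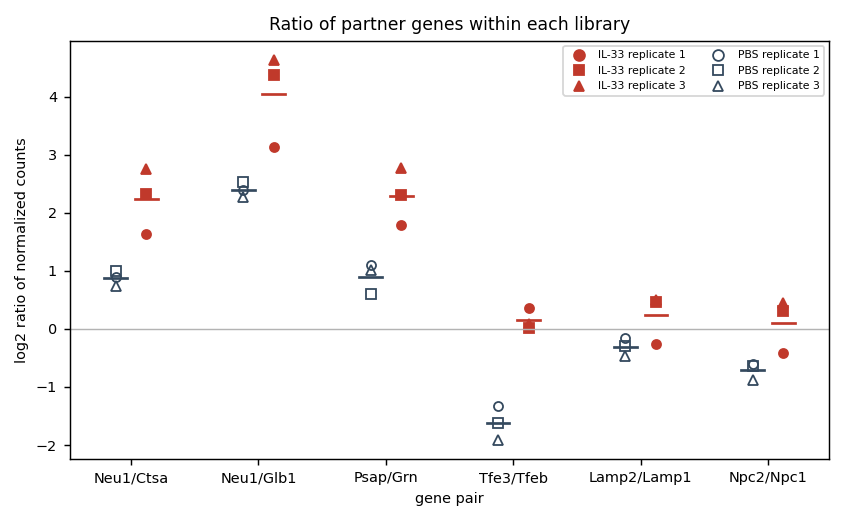
Log2 ratio of normalized counts (vertical axis) for 6 gene pairs (horizontal axis) in each library. Filled symbols are IL-33 libraries, open symbols PBS libraries, with 1 shape per replicate number, and bars are group means. The groups are apart in all pairs except Lamp2/Lamp1, where IL-33 replicate 1 lies among the PBS libraries.

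The IL-33 libraries did not act alike. In 7 of the 34 members, Ctsl, Ctss, Gla, Hexa, Cd68, Lamp1 and Tfeb, IL-33 replicate 1 and the mean of replicates 2 and 3 lay on opposite sides of the PBS mean, and none of these was called. Replicate 1 is the IL-33 library whose Rn45s share lay within the PBS range. Compared alone with PBS, it gave 11 members higher and 5 lower, in a fit that assumes the lone library to vary like the PBS libraries, beside 18.8% of all genes in each direction. Without it, 10 members were higher and 10 lower, or 29.4% each, and so were 28.0% and 28.4% of all genes tested. Without IL-33 replicate 2, 3 members were higher and 0 lower, when 8.43% and 7.23% of all genes were. Without PBS replicates 1, 2 or 3 the counts were 5, 2 and 2 higher and 0 lower each time, beside 10.8%, 7.60% and 6.74% of all genes higher and 5.78%, 3.47% and 3.08% lower. The number of calls thus moved over all genes, not over lysosomal genes alone. Tfe3 and Ctsz were called without each library in turn, and no other of the 12 called members was. All 12 kept their direction in every fit that left out a library. Whether the Rn45s share had a part in the spread between libraries was not tested.

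The scaling of the libraries bears on the direction of many members, among them 6 of the 8 that rose. TMM scaling called 8 members higher and 6 lower, beside 16.9% and 14.9% of all genes. Quantile normalization called 3 higher (Tfe3, Ctsz and Ctsc) and 8 lower, or 8.82% and 23.5% of the members, beside 15.5% and 16.5% of all genes. Psap (0.18), Neu1 (0.44) and Lamp2 (0.28) lost their calls under it, as did Cd63 and Ctsd. Scaling to equal totals without Rn45s called 2 members higher and 11 lower, or 5.88% and 32.4%, beside 9.02% and 33.9% of all genes. With equal totals 1 member was higher and 15 were lower, or 2.94% and 44.1%, beside 2.50% and 50.1% of all genes. Under these last 2, the median over all genes tested went from −0.03 to −0.45 and −1.06 (log2). Relative to that median, Tfe3 at 0.86 and Ctsz at 0.57 after scaling to equal totals remained high, and 6 of the 8 genes that rose, namely Ctsc, Cd63, Psap, Neu1, Lamp2 and Ctsd, were below 0 but above the median of all genes. Asah1, Glb1, Ctsa and Grn were lower under all 5 scalings.

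**Figure D5:**
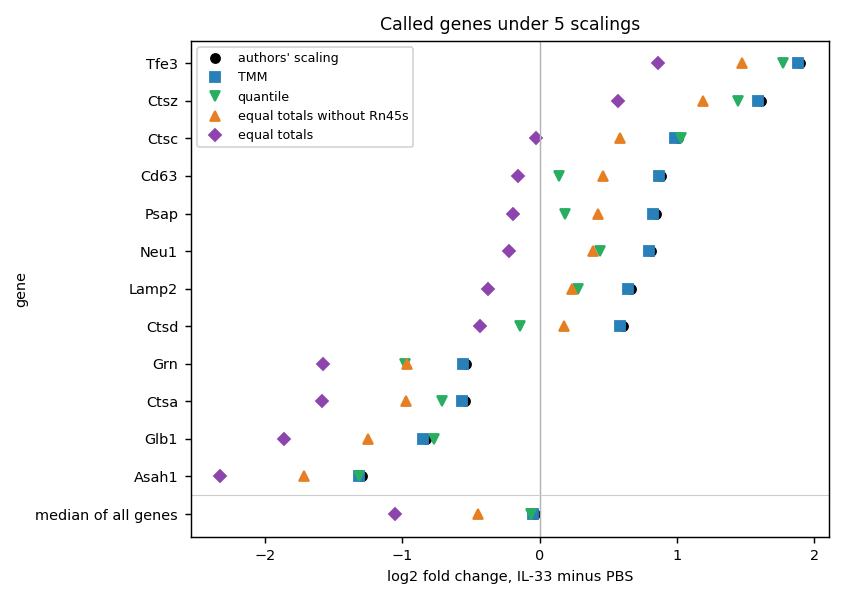
Log2 fold change, IL-33 minus PBS (horizontal axis), of the 12 called lysosomal genes (vertical axis) under 5 scalings of the libraries, with the median of all genes tested in the bottom row. Tfe3 and Ctsz stay above 0 under each of them, and the median of all genes falls to −1.06 with equal totals.

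Other genes of the lysosomal system, in 5 lists, were called at shares near those of all genes. Of 119 tested, 15 rose (12.6%, beside 17.4% of all genes), 19 fell (16.0%, beside 14.4%) and 85 were not called, with a median log2 fold change of −0.06. Of 36 further hydrolases and cofactors, 4 rose and 7 fell. Ggh, which trims folate polyglutamates (1.33), Dnase2a, the acid DNase (1.10), and Plbd2 (0.78) rose, and Manba, the beta-mannosidase (−1.79), Arsb, arylsulfatase B (−1.35), and Lgmn, the asparaginyl endopeptidase legumain (−1.06), fell, all log2 fold changes. Of 24 further membrane proteins, 4 rose and 4 fell. Slc11a1, the divalent metal transporter NRAMP1 of phagocytes, had 865, 927 and 1415 after IL-33 and 219.8, 133 and 136 in PBS, the largest rise in these lists (log2 fold change 2.71, SE 0.27, adjusted p = 5.26e-04, limma). Clcn3, a chloride transporter, rose by 1.22, and the amino acid sensor Slc38a9 (−0.96), the potassium channel Tmem175 (−0.88) and the cystine exporter Ctns (−0.80) fell.

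Of 16 subunits and accessory proteins of the vacuolar ATPase, the proton pump that acidifies the lysosome, 3 rose, 1 fell and 12 were not called (median 0.22). This count and those of the next lists stand beside 17.4% higher and 14.4% lower of all genes tested. The risers were Atp6v0b (1.13) and Atp6ap2 (0.95) of the membrane part and Atp6v1b2 (0.66) of the catalytic part, and Atp6v0a1 fell (−0.66). Of 19 sorting and tethering genes, 3 rose and 3 fell. M6pr, a mannose 6-phosphate receptor that delivers hydrolases (0.93), rose, and the sorting receptor Sort1 (−1.17) and Lyst (−1.14) fell. Of the tethering complexes, Vps18 (0.90) and Vps16 (0.60) rose and Vps41 (−1.32) fell. Vps11 (−0.29), Vps33a (−0.48) and Vps39 (−0.24) of these complexes were not called. Of 24 genes for regulators of TFEB, for mTORC1 and for its docking at the lysosome, a list that also holds the TFEB relative Tfec, 1 rose and 4 fell (median −0.33). Rheb, the GTPase that activates mTORC1, had 1136, 1201 and 1107 after IL-33 and 506, 490.4 and 446 in PBS (1.26, SE 0.15, adjusted p = 0.00116, limma). Depdc5 (−1.19) of the GATOR complex and Tsc2 (−0.51) of the complex that restrains Rheb were lower. Mlst8 (−0.94), a subunit of mTORC1 itself, and Nprl2 (−1.09) were called lower as well, at low levels. The activity of mTORC1 was not measured. Over these lists 1 gene was called higher and 61 lower with equal totals, and 6 and 45 with equal totals that leave out Rn45s. The shares over all genes moved under both scalings as well.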

How the data were processed

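RNA of 6 libraries had been depleted of ribosomal RNA and made into directional libraries, per the labels' protocols. The deposited table holds gene counts as a normalized signal, since the authors divided the counts of a library by 1 factor. HISAT2, HTSeq and DESeq2 with mm10 were used, per the submitters' processing notes. Their versions, the annotation and the strand setting were not given in the sources read, so reads of overlapping genes may not be told apart.

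Values were whole multiples of the smallest value in a library, and 100% came out whole within 0.1 of a read, which gave the reads. Since reads carry no molecular identifiers, they do not each stand for a molecule. Genes with a normalized count of at least 10 in at least 3 libraries entered the test, made with limma 3.58.1 (R 4.3.3, mean-variance trend, pseudocount 1, two-sided), and the tests were tried on simulated data. Spans, exonic lengths and overlaps come from GENCODE vM21 (GRCm38), and all 34 symbols matched. The 19 alternatives were other pseudocounts, filters and scalings, no trend, edgeR 4.0.16 and DESeq2 1.42.0 on the reads, the replicate number as a block, IL-33 replicate 1 alone, and each library left out.

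The members, the lists and the tests were chosen with earlier results of these data known. Members called, Lamp1, Lamp2 and the TFEB family were given in full, and up to 3 called genes per direction of each other list with a mean of at least 50 were named. Mlst8, Nprl2, Vps11, Vps33a and Vps39 were named besides. No library pair agreed within counting noise. No sample was left out.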

Additional observations from a re-analysis of the deposited data

How the results depend on the processing

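The counts of calls, over all genes as over the members, depended on single libraries: without 1 library at a time, 2 to 10 members were called higher and 0 to 10 lower, 695 to 2910 of all genes higher and 318 to 2950 lower, and 5 to 29 genes of the other lists higher and 4 to 38 lower, while the members' median log2 fold change was 0.06 to 0.15. The fewest calls came without a PBS library and the most without IL-33 replicate 1. Scaling to equal totals gave 264 genes higher and 5287 lower, 1 and 15 members, 1 and 61 genes of the other lists, and a members' median of −0.92. Equal totals without Rn45s gave 951 and 3570 genes, 2 and 11 members, 6 and 45 in the other lists, and −0.31. Quantile normalization gave 1638 and 1740 genes, 3 and 8 members, 9 higher in the other lists, and −0.19. Without the mean-variance trend 2 members were lower, and IL-33 replicate 1 alone gave 25 higher in the other lists. On the recovered reads, edgeR called 8 members higher and 4 lower, and DESeq2 9 and 6.

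The sign turned for these members. With equal totals the log2 fold changes were −0.16 for Cd63, −0.33 for Ctsb, −0.029 for Ctsc, −0.44 for Ctsd, −0.999 for Ctsl, −0.67 for Gaa, −1.02 for Gla, −1.002 for Hexa, −0.92 for Lamp1, −0.38 for Lamp2, −0.82 for Laptm5, −0.50 for Lipa, −0.19 for Mitf, −0.23 for Neu1, −0.92 for Npc2, −0.19 for Psap, −0.45 for Scarb2, −0.90 for Tfeb and −0.62 for Tpp1. Of all reversed values 3 were called, those of Hexa, Npc2 and Tfeb with equal totals. With equal totals without Rn45s they were −0.39 for Ctsl, −0.056 for Gaa, −0.41 for Gla, −0.39 for Hexa, −0.31 for Lamp1, −0.21 for Laptm5, −0.30 for Npc2, −0.29 for Tfeb and −0.0095 for Tpp1. With quantile normalization they were 0.12 for Cd68, −0.15 for Ctsd, −0.072 for Ctsl, −0.23 for Gla, −0.35 for Hexa, −0.29 for Lamp1, −0.35 for Laptm5, −0.26 for Npc2 and −0.11 for Tfeb. Gla was at −0.0014 with TMM scaling, and IL-33 replicate 1 alone gave 0.30 for Ctss and −0.30 for Tfeb. Without 1 library, Cd68 ranged from −0.21 to 0.068, Ctsl from −0.098 to 0.27, Gla from −0.40 to 0.32, Hexa from −0.068 to 0.14 and Lamp1 from −0.092 to 0.31. The 2 scalings to equal totals shift all genes by construction, and the cause of the other changes was not tested.

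Of 645 values of single members over the alternatives, 477 kept their direction and their side of the threshold, 66 lost a call, 50 gained one and 52 turned. With the replicate number as a block, 7 members were higher and 3 lower, or 20.6% and 8.82%, beside 15.4% and 12.3% of all genes. Ctsa, Ctsd, Grn and Neu1 were then not called and Ctsb and Laptm4a were. Deviations from the group means correlated at 0.05, 0.24 and −0.16 between the libraries numbered 1, 2 and 3, and not every library correlated best with its own number, so the numbers were not taken to pair the libraries. Reads were few for Mitf, Ctss and Smpd1, with as few as 21, 14 and 33 in a library. Whether depth had a part in their spread was not tested.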
